A study of Cavia porcellus with 34 samples.

Results

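Imprinted genes are expressed mainly or only from the copy inherited from one parent, because the other copy carries an epigenetic mark set in the germ line. The mark is usually DNA methylation laid down in egg or sperm, and it is kept through the early embryo while most other methylation is erased. Several imprinted genes are strongly expressed in the hypothalamus, where they are known for roles in growth, feeding, maternal behaviour and hormone secretion. A set of 9 such genes was followed here, chosen by gene symbol: PEG3, MEST, DLK1, PLAGL1, GRB10, NDN, MAGEL2, SNRPN and CDKN1C. Of these, 7 had a row in all 3 tables of the series, which together list 12592 genes, and all 7 passed the filter on low values in every generation. SNRPN and CDKN1C had no row under those symbols and were not analysed here. Imprinting was not measured, because counts per gene do not separate the maternal and paternal copy. Statements on the expressed copy, and the lists named by it, are background and were not tested in these animals.

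The study asked whether glucocorticoid given during pregnancy leaves a trace in later generations that can pass through the male line. Pregnant Dunkin-Hartley guinea pigs (F0) were injected with repeated courses of betamethasone, a synthetic glucocorticoid (sGC), or with saline vehicle (Veh). F1 animals were exposed in utero, and the F2 and F3 animals described here came from the paternal line, in which sons were mated with naive females and those pregnancies were left undisturbed. Messenger RNA was sequenced from micropunches of the paraventricular nucleus (PVN) of juvenile females on postnatal day 40. F1 and F2 each had 5 animals per treatment, and F3 had 6 per treatment. The groups are named by their generation and by what the F0 founder received, since F2 and F3 animals were not treated themselves. The punch held the whole PVN and may hold neighbouring hypothalamus.

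The values are normalized counts per gene, rounded to whole numbers and normalized apart in each generation, so a level is compared only within a generation and never between genes, whose lengths differ. Their sums ranged from 15.57 to 21.94 M (mega) per animal in F1, from 15.65 to 19.44 M in F2, and from 18.69 to 18.98 M in F3. In the punches all 7 markers of PVN neurons (AVP, OXT, CRH, TRH, SST, SIM1 and OTP) had a row in every table. Their summed level was 94313 to 217016 normalized counts in F1 Veh and 22595 to 191137 in F1 sGC. It was 61090 to 102096 in F2 Veh and 84305 to 175321 in F2 sGC, and 16516 to 55734 and 22975 to 40821 in F3. In sGC, 7 of the 7 were lower in F1 (median log2 fold change -0.94) and 7 of the 7 were higher in F2 (median 0.32), though none passed the adjusted threshold. In F2, all 5 oligodendrocyte markers were lower in sGC, with summed levels of 60150 to 97711 against 113224 to 200907 in Veh. Fewer cells of a type and less RNA per cell cannot be told apart in such samples. In F3, 2 of the 6 sGC animals (replicates SGM21 and SGM22) were sequenced in a second batch, whose Veh libraries were repeats of first-batch animals and were not analysed here, so PEG3 in F3 is also given for the first batch.

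None of the 7 imprinted genes differed between sGC and Veh in any generation after adjustment over all genes. The test was limma on log2(value + 1) followed by Benjamini-Hochberg adjustment at 0.05, and the lowest adjusted p of the 7 genes was 0.591 in F1, 0.59 in F2 and 0.236 in F3. Across all genes tested, the same rule called 78 genes in F1 (0.657%), none in F2 (0.0%) and 6 in F3 (0.0506%). In F2, 1395 genes (11.7%) had an unadjusted p under 0.05. At that unadjusted level, 1 of the 7 imprinted genes was counted, PEG3 in F3, against 13.6% of all genes in F1, 11.7% in F2 and 13.1% in F3. The Veh and sGC ranges overlapped for all 7 genes in every generation, where 2.04% of all genes had separate ranges in F1, 2.4% in F2 and 1.21% in F3. The median log2 fold change of the 7 genes was 0.02 in F1, 0.02 in F2 and -0.06 in F3, beside 0.07, -0.08 and 0.00 for all genes. The 95% confidence intervals of the 7 genes reached from -0.47 to 0.51 in F1, from -0.57 to 0.33 in F2 and from -0.39 to 0.26 in F3. These are the outermost ends over the 7 genes, and each gene's own interval is narrower or as wide.

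**Figure D1:**
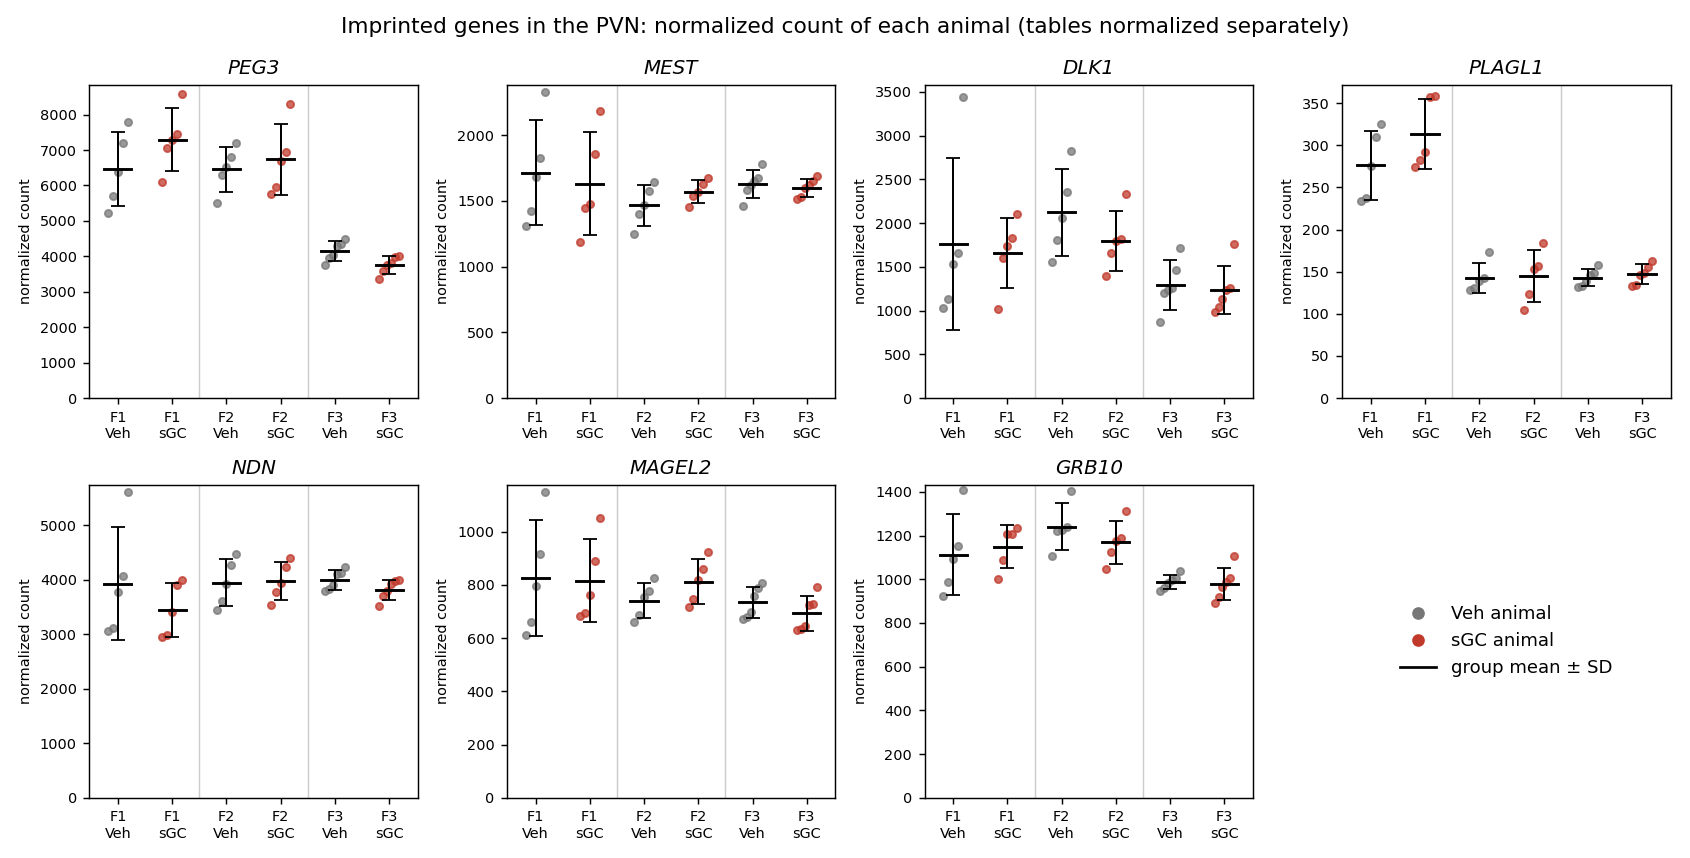
Normalized count (vertical axis, linear from 0) of the 7 imprinted genes in each animal, with Veh in grey and sGC in red for F1, F2 and F3. Black lines are the group mean and bars are ± SD (n = 5, 5 and 6 per group). The groups overlapped in all 21 pairs, and in F3 the 6 sGC animals lay at 3347 to 4001 for PEG3 against 3747 to 4496 in Veh.

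PEG3 was, on the deposited scale, the imprinted gene whose level differed most from Veh relative to its error, and it did so in F3. It encodes a large zinc finger protein made from the paternal copy and is known for effects on maternal care and on oxytocin neurons. In F3 the Veh animals ranged from 3747 to 4496 normalized counts with a median of 4175.0. The sGC animals ranged from 3347 to 4001 with a median of 3782.0. All 6 of the 6 sGC animals lay below the Veh mean, although 4 of them were within the Veh range and 2 were below it. The mean was 4151 ± 279.4 (SD, n = 6) in Veh and 3747 ± 251.5 (SD, n = 6) in sGC. On the log2 scale sGC was -0.15 ± 0.05 (SE) from Veh, with a 95% interval of -0.25 to -0.04 (limma, unadjusted p = 0.0105, adjusted p = 0.236). An exact two-sided permutation test over the 12 animals gave p = 0.0368. With estimates of the directions that the normalization had removed as covariates, the log2 fold change was -0.15 (limma, unadjusted p = 0.018, adjusted p = 0.488). With 6.92% of all genes lower at the unadjusted level in F3, 1 gene of 7 is no result about the imprinted genes as a group.

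The 2 sGC animals of the second batch had 3347 and 3800 normalized counts of PEG3, and the 4 of the first batch had 3993, 3579, 4001 and 3764. The animal of the second batch with 3347 was the lowest of the 12. In the first batch alone (6 Veh, 4 sGC) the log2 fold change was -0.11 with a standard error of 0.05 (limma, unadjusted p = 0.0442, adjusted p = 0.498). With batch as a covariate it was also -0.11 (unadjusted p = 0.0554, adjusted p = 0.505). The 4 neuronal markers tested in F3 were all lower in sGC, with a median log2 fold change of -0.05. All 4 tested in F2 were also lower (median -0.2), where PEG3 was at 0.05. In F1, 4 of 5 were higher (median 0.2), where PEG3 was at 0.18. The part of these markers in the PEG3 values was not tested.

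In F1 and F2 the PEG3 values did not lie below Veh. In F1 the Veh animals had 7186, 7796, 6370, 5231 and 5704 normalized counts, and the sGC animals had 7056, 7453, 8575, 7287 and 6111. The highest of the 10 was an sGC animal and the lowest a Veh animal, with the ranges overlapping. Their log2 fold change was 0.18 ± 0.13 (SE; limma, adjusted p = 0.591). In F2 the Veh values were 5510, 6286, 6508, 6794 and 7201, and the sGC values were 8292, 6944, 6696, 5769 and 5963, so that 1 sGC animal lay above every Veh animal. The F2 log2 fold change was 0.05 ± 0.10 (SE; limma, adjusted p = 0.851). Size factors by the median of ratios set each animal to a common scale through its typical gene. On that scale all 5 sGC animals lay above the Veh mean in F1 and again in F2. The scaled log2 fold change was 0.12 ± 0.06 (SE) in F1 (limma, unadjusted p = 0.0609, adjusted p = 0.173, exact permutation p = 0.0317) and 0.13 ± 0.09 in F2 (limma, adjusted p = 0.644, exact permutation p = 0.317). With quantile normalization it was 0.14 in F1 (limma, unadjusted p = 0.0227, adjusted p = 0.0907) and 0.16 in F2 (unadjusted p = 0.0311, adjusted p = 0.306). Without the F1 Veh animal SGM7 the F1 value on the deposited scale was 0.25 (limma, unadjusted p = 0.0477, adjusted p = 0.206).

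The effect on PEG3 in F1 minus that in F3 was 0.33 on the log2 scale, with a standard error of 0.14 and a 95% interval of 0.06 to 0.61. It did not pass the adjusted threshold on the deposited scale (limma, unadjusted p = 0.0199, adjusted p = 0.175), and the exact permutation of treatment labels within each generation gave p = 0.0275. Among all 11429 genes in this test, 3.13% passed for F1 minus F3 after adjustment and 18.1% at an unadjusted p under 0.05. The difference passed when samples were scaled to their total (0.28, limma adjusted p = 0.0327) or quantile normalized (0.29, limma adjusted p = 0.0129). Size factors gave 0.27 (limma, adjusted p = 0.0602). It also passed without the F1 Veh animal SGM7, which had the highest PEG3 level of the F1 Veh group (0.4, adjusted p = 0.0435). Those settings also called more of all genes, 17.4% with the total, 18.2% with quantiles, 17.6% with size factors and 11.2% without SGM7. The call thus depended on the scaling and on 1 animal.

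**Figure D2:**
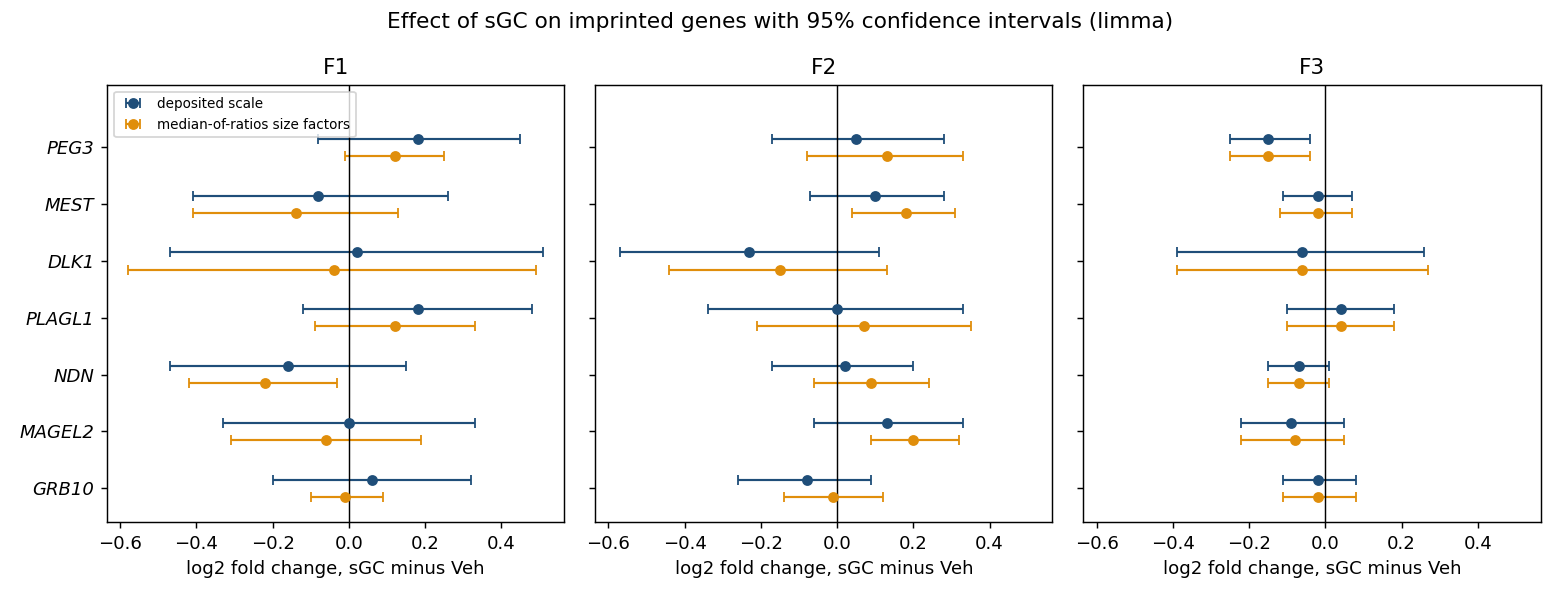
Log2 fold change of sGC minus Veh (horizontal axis) of the 7 imprinted genes in F1, F2 and F3, with 95% confidence intervals from limma, on the deposited scale in blue and with median-of-ratios size factors in orange. The interval of PEG3 in F3 lay below 0 on both scales, and those of NDN in F1 and of MEST and MAGEL2 in F2 excluded 0 only with size factors.

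NDN and MAGEL2 lie next to each other in the imprinted region whose paternal loss causes Prader-Willi syndrome in humans. Both belong to the MAGE protein family. NDN (necdin) promotes neuronal differentiation and survival, and MAGEL2 takes part in recycling of endosomal proteins with a ubiquitin ligase complex and is required for normal oxytocin and feeding physiology. Neither gene differed in any generation on the deposited scale.

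In F1 the NDN values were 4063, 5613, 3784, 3119 and 3069 normalized counts in Veh and 2995, 3414, 3911, 4002 and 2949 in sGC. A single Veh animal (SGM7) stood highest, and the ranges overlapped. On this scale the log2 fold change was -0.16 ± 0.15 (SE; limma, adjusted p = 0.706). Without SGM7 it was -0.02 (limma, adjusted p = 0.932), so that this 1 animal carried most of the value. After size factors, the Veh animals lay at 3614 to 4669 and the sGC animals at 2868 to 3811, and 5 of 5 sGC animals were below the Veh mean. It was then -0.22 ± 0.09 (SE; limma, unadjusted p = 0.0305, adjusted p = 0.11). An exact permutation test of the scaled values gave p = 0.0794. NDN was 1 of 7 imprinted genes with an unadjusted p under 0.05 on that scale in F1, where 32.9% of all genes had one. In F1 all 7 PVN neuron markers were also lower in sGC, and their part in the NDN value was not tested.

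In F2 the NDN means were 3946 ± 431.9 (SD, n = 5) in Veh and 3983 ± 345.1 (SD, n = 5) in sGC, with a log2 fold change of 0.02 ± 0.09 (SE; limma, adjusted p = 0.946) and 0.09 ± 0.07 with size factors (adjusted p = 0.655). In F3 Veh ranged from 3798 to 4245 with a median of 4004.5, and sGC from 3524 to 4003 with a median of 3855.0. In F3, 5 of 6 sGC animals were below the Veh mean, and the log2 fold change was -0.07 ± 0.04 (SE; limma, unadjusted p = 0.0865, adjusted p = 0.461). The effect on NDN in F1 minus that in F2 was -0.18 ± 0.16 (SE) on the deposited scale (limma, adjusted p = 0.522), and -0.04 without SGM7 (adjusted p = 0.835). Among all genes, 7.64% passed for this difference, and 24.5% had an unadjusted p under 0.05. It passed after each scaling of the samples, with -0.31 for size factors (adjusted p = 0.037), -0.32 for the sample total (adjusted p = 0.0426) and -0.33 for quantiles (adjusted p = 0.0395). The same settings called 1635 (14.3%), 1599 (14%) and 1785 (15.6%) of all genes. The exact permutation of the size-factor values gave p = 0.0203. The PVN marker list moved the same way, being lower in F1 sGC and higher in F2 sGC, and its part in this difference was not tested.

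MAGEL2 gave the clearest separation of the 7 genes in F2, and only after scaling. The deposited values in F2 were 777, 688, 755, 661 and 825 normalized counts in Veh and 924, 860, 817, 716 and 746 in sGC, with overlapping ranges. Unscaled, the log2 fold change was 0.13 ± 0.09 (SE; limma, unadjusted p = 0.173, adjusted p = 0.59). Scaled by size factors, the Veh animals had 720.6, 729.9, 708.9, 674.9 and 769.4, and the sGC animals had 907.3, 846.4, 788.0, 816.2 and 798.1. All 5 scaled sGC values were above all 5 scaled Veh values, as for 1.3% of all genes on that scale, and 3.21% separated in either direction. The scaled means were 720.7 ± 34.26 (SD, n = 5) and 831.2 ± 47.98 (SD, n = 5). Between them the log2 fold change was 0.20 with a standard error of 0.05 and a 95% interval of 0.09 to 0.32 (limma, unadjusted p = 0.00268, adjusted p = 0.157). The exact permutation p was 0.00794, the smallest that 5 against 5 animals can give. With size factors no gene of the whole table passed the adjusted threshold in F2, and 12.8% had an unadjusted p under 0.05, beside 2 of the 7 imprinted genes (MAGEL2 and MEST). The oligodendrocyte markers were lower and the PVN neuron markers higher in the same F2 sGC animals, and their part in the MAGEL2 value was not tested.

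In F1 the MAGEL2 mean was 826.2 ± 216.6 (SD, n = 5) for Veh and 816.6 ± 154.7 (SD, n = 5) for sGC. Their log2 fold change was 0.00 ± 0.16 (SE; limma, adjusted p = 0.998). In F3, Veh ranged from 673 to 807 with a median of 728.5, and sGC from 632 to 791 with a median of 686.5. For F3 the log2 fold change was -0.09 ± 0.06 (SE; limma, adjusted p = 0.614), and 5 of 6 sGC animals were below the Veh mean.

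DLK1 was the most variable of the 7 genes between animals. It encodes a transmembrane relative of the Notch ligands, made from the paternal copy, that acts in growth and fat cell differentiation. In F1 the Veh values were 1659, 3447, 1534, 1026 and 1130 normalized counts, and the sGC values were 1015, 2105, 1739, 1828 and 1605. One Veh animal (SGM7) held the highest value by far and the other 9 values overlapped. The SD within groups on the log2 scale was 0.56 in F1, larger than in 95.7% of genes, and 0.30 in F2 (83.0%) and 0.31 in F3 (94.6%). The median gene had 0.21, 0.16 and 0.08.

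DLK1 in F1 had a log2 fold change of 0.02 ± 0.23 (SE; limma, adjusted p = 0.984), or 0.30 without SGM7 (adjusted p = 0.363), and its interval of -0.47 to 0.51 was the widest of the 7 genes in that generation. In F2 the values were 2361, 1805, 2063, 1557 and 2828 in Veh and 2329, 1819, 1797, 1396 and 1654 in sGC. The lowest was an sGC animal and the highest a Veh animal, and 4 of 5 sGC animals had fewer than the Veh mean of 2123 ± 494.7 (SD, n = 5). This gave a log2 fold change of -0.23 ± 0.16 (SE; limma, adjusted p = 0.59), and -0.15 ± 0.13 with size factors (adjusted p = 0.705). In F3 Veh ranged from 872 to 1719 with a median of 1251.5 and sGC from 985 to 1762 with a median of 1184.0, giving -0.06 ± 0.15 (SE; limma, adjusted p = 0.911).

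MEST encodes a hydrolase-like protein of the endoplasmic reticulum, made from the paternal copy and known for effects on growth and fat cell size. In F1 the values were 1829, 2324, 1682, 1310 and 1422 normalized counts in Veh and 1472, 1444, 1858, 2184 and 1188 in sGC. The ranges overlapped, with the highest value in Veh and the lowest in sGC. The log2 fold change was -0.08 ± 0.16 (SE; limma, adjusted p = 0.891). In F2 Veh had 1574, 1249, 1645, 1465 and 1399, and sGC had 1563, 1676, 1536, 1451 and 1626. The sGC animals were on average higher and less spread than Veh, but the ranges overlapped, with 0.10 ± 0.08 (SE; limma, unadjusted p = 0.222, adjusted p = 0.621). With size factors 5 of 5 sGC animals were above the Veh mean and the log2 fold change was 0.18 ± 0.06 (SE; limma, unadjusted p = 0.0151, adjusted p = 0.265). In F3 the log2 fold change was -0.02 ± 0.04 (SE; limma, adjusted p = 0.862), with an interval of -0.11 to 0.07.

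PLAGL1 encodes a zinc finger transcription factor that restrains the cell cycle and is known to regulate other imprinted genes. In F1 it ranged from 234 to 325 normalized counts in Veh and from 274 to 359 in sGC. The F1 log2 fold change was 0.18 ± 0.15 (SE; limma, adjusted p = 0.653), and 0.12 ± 0.09 with size factors (adjusted p = 0.412). In F2 the values were 131, 128, 139, 143 and 173 in Veh and 184, 153, 157, 123 and 105 in sGC. The sGC animals held both the highest and the lowest value, and the log2 fold change was 0.00 ± 0.16 (SE; limma, adjusted p = 0.995). In F3 it was 0.04 ± 0.07 (SE; limma, adjusted p = 0.855).

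GRB10 encodes an adaptor that dampens insulin and IGF receptor signalling and is expressed from the paternal copy in neurons but from the maternal copy in most other tissues. It was the steadiest of the 7 genes in F1 after scaling, with an SD on the log2 scale of 0.06, smaller than in all but 11.5% of genes. Its log2 fold change was 0.06 ± 0.13 (SE; limma, adjusted p = 0.894) in F1, -0.08 ± 0.08 (adjusted p = 0.693) in F2 and -0.02 ± 0.05 (adjusted p = 0.921) in F3. The F3 interval was -0.11 to 0.08. With size factors, which removed differences in sample totals, the F1 interval narrowed to -0.10 to 0.09.

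Most pairs of the 7 genes were positively correlated between animals of one group, more strongly in F1 than in F2 or F3. Correlations were taken over the 32 animals on log2 size-factor scaled values after subtracting each group mean, as a description. All values of an animal come from the same library, so depth and tissue content are shared by both genes of a pair. Of the 21 pairs, 20 had a positive Pearson r, with a median of 0.41 and a range of -0.07 to 0.78. Within generations the median was 0.56 in F1, 0.21 in F2 and 0.19 in F3. Between each gene and all 10541 other genes the median r was between 0.00 and 0.02. The 95th percentile of those values was between 0.38 (DLK1) and 0.59 (PEG3). On the deposited scale all 21 were positive with a median of 0.67, where the median against all genes was 0.42 to 0.58, since unscaled totals add a part common to every gene.

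NDN and MAGEL2 were the pair most alike, with r = 0.78 over the 32 animals, 0.89 in F1, 0.44 in F2 and 0.90 in F3. Among 10541 genes ranked by likeness to MAGEL2, NDN was number 7, and MAGEL2 was number 15 for NDN. DLK1 and MAGEL2 had r = 0.63 (0.60 in F1, 0.87 in F2, 0.59 in F3), MEST and NDN had 0.61 (0.81, 0.21 and 0.29), and DLK1 and NDN had 0.59 (0.79, 0.19 and 0.50). PEG3 had 0.52 with GRB10, 0.50 with PLAGL1 and -0.07 with MEST. Its values with GRB10 and PLAGL1 lay below 0.59, the 95th percentile of r between PEG3 and all genes. They ranked 926 and 1064 among the 10541 genes, and PEG3 with PLAGL1 was at -0.14 in F3. Within generations the pattern was uneven. All 21 pairs were positive in F1, and 14 of 21 were in F2 and 14 of 21 in F3. PEG3 and MEST went from 0.46 in F1 to -0.76 in F3, and PLAGL1 and GRB10 from 0.35 in F1 to -0.79 in F3, each over 10 or 12 animals.

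**Figure D3:**
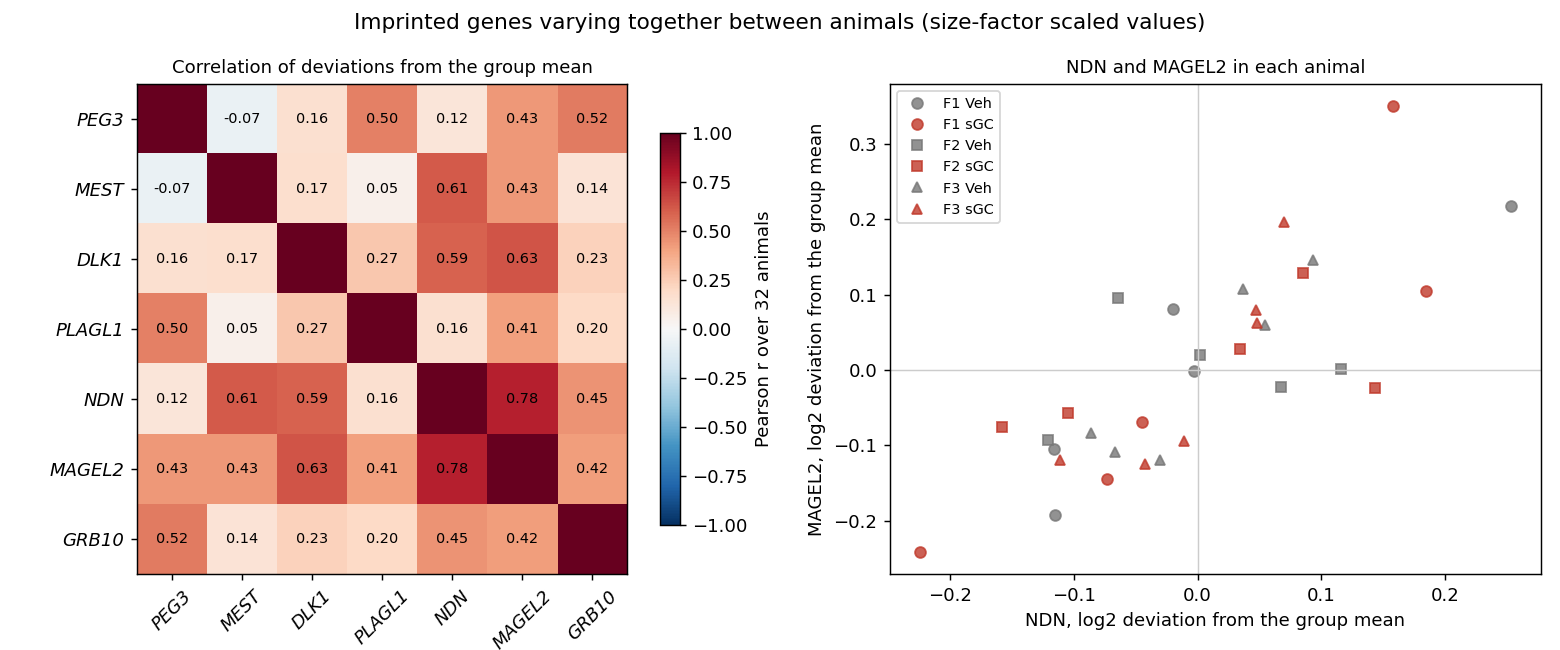
Left, Pearson r between the 7 imprinted genes over 32 animals, on log2 size-factor scaled values with each group mean subtracted (colour from -1 to 1, value printed in each cell). Right, the same deviations of NDN (horizontal axis) and MAGEL2 (vertical axis) in each animal, with Veh in grey, sGC in red and a symbol for each generation. The points of NDN and MAGEL2 rise together with r = 0.78.

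The same deviations were set beside the mean log2 level of each list of cell type markers. NDN, MEST and MAGEL2 ran with the PVN neuron markers (r = 0.61, 0.60 and 0.52 over 32 animals) and against the oligodendrocyte markers (r = -0.58, -0.56 and -0.53). DLK1 had 0.41 with the PVN markers and PLAGL1 0.36. PEG3 (0.02) and GRB10 (0.08) had almost none of this relation. PEG3 had 0.59 with the general neuronal markers, -0.48 with the astrocyte and -0.59 with the endothelial markers. The other imprinted genes also ran against the endothelial markers, with PLAGL1 at -0.51 and MAGEL2 at -0.48. GRB10 had -0.46 with the astrocyte and -0.59 with the microglial markers. The part of tissue content in the relations among the imprinted genes was not tested.

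For each imprinted gene the 2 genes most like it over the 32 animals were listed, by the same r. For PEG3 they were C4ORF50 (0.90) and NOLC1 (0.87), a nucleolar phosphoprotein. DLK1 was most like MC4R (0.77), the melanocortin receptor of appetite control, and ARHGAP36 (0.76). MEST was most like SLIT3 (0.76), an axon guidance ligand, and CAPRIN2 (0.72). PLAGL1 was most like SLC41A2 (0.79), a magnesium transporter, and RNF168 (0.76), a ubiquitin ligase of the DNA damage response. NDN was most like RTP5 (0.87) and SND1 (0.87), and MAGEL2 most like CD3EAP (0.88), a subunit of RNA polymerase I, and HSDL1 (0.82). GRB10 was most like REEP2 (0.78) and GALNT16 (0.76). These are the highest of 10541 values for each gene. Within generations some were uneven, as for MEST with SLIT3 (0.87 in F1, 0.55 in F2 and 0.49 in F3). MAGEL2 had 0.95, 0.42 and 0.89 with CD3EAP and 0.98, 0.92 and 0.47 with HSDL1. PEG3 with C4ORF50 was even, at 0.90, 0.91 and 0.88.

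A further list of 36 imprinted genes was set beside the 7, and none of them passed the adjusted threshold in any generation on the deposited scale. Of those tested in F1, 15 were higher and 7 lower in sGC, with a median log2 fold change of 0.07, the same as all genes. In F2, 4 were higher and 20 lower (median -0.07 beside -0.08 for all genes). In F3, 9 were higher and 16 lower (median -0.03 beside 0.00). The directions in F1 and F2 moved with the scaling, and with size factors 12 were higher and 10 lower in F1, and 13 higher and 11 lower in F2.

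In F3, 3 of the 25 tested had an unadjusted p under 0.05, all lower in sGC and all on the list of paternally expressed genes. Of all genes in F3 13.1% had such a p in either direction, and 6.92% had one and were lower. The count of 3 in 25 is near the first share and above the second. It was 3 of 11 on the paternal list and 0 of 14 on the maternal or tissue-dependent list. In F1 the counts on the same lists were 1 of 10 and 3 of 12, all higher in sGC, beside 13.6% of all genes. In F2 they were 0 of 10 and 1 of 14, beside 11.7% of all genes. These small counts were not tested against the shares of all genes. In F3, 9 of 11 on the paternal list were lower, with a median of -0.05. MKRN3, a ubiquitin ligase gene of the Prader-Willi region that restrains puberty, had a mean of 129.0 ± 14.04 (SD, n = 6) for Veh and 105.2 ± 9.847 (SD, n = 6) for sGC. Its Veh values were 101 to 137 and its sGC values 92 to 120, with 1 Veh animal within the sGC range. It differed by a log2 fold change of -0.29 ± 0.09 (SE; limma, unadjusted p = 0.00487, adjusted p = 0.195). PEG10, a gene derived from a retrotransposon, was 41030 ± 3314 (SD, n = 6) in Veh and 36160 ± 2873 (SD, n = 6) in sGC. Its log2 fold change was -0.18 ± 0.06 (SE; limma, unadjusted p = 0.00791, adjusted p = 0.218). RASGRF1, an exchange factor for Ras in neurons, had -0.09 ± 0.04 (SE; limma, unadjusted p = 0.0264, adjusted p = 0.308). PEG10 and RASGRF1 were named after their values were seen. The values of these genes include the second-batch sGC animals SGM21 and SGM22. Those had 92 and 112 normalized counts of MKRN3, and 34782 and 38791 of PEG10. Effects in the first batch alone are not given for these genes. With a mean of at least 50, the gene of that list furthest in the other direction in F3 was RTL1 at 0.08 (limma, adjusted p = 0.874).

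Among genes with a mean of at least 50, the paternal list ran in F1 from L3MBTL1, a chromatin reader, at 0.74 ± 0.19 (SE; limma, adjusted p = 0.0639) to RTL1 at -0.15 (limma, adjusted p = 0.866). L3MBTL1 averaged 93.6 ± 10.92 (SD, n = 5) for Veh and 159.8 ± 42.53 (SD, n = 5) for sGC. Its ranges did not overlap, at 77 to 106 for Veh and 119 to 226 for sGC. Of all genes in F1, 2.04% did not overlap, and L3MBTL1 was named as the end of its list. In F2 the paternal list ran from RTL1 at 0.22 (limma, adjusted p = 0.645) to ZDBF2 at -0.60 (limma, adjusted p = 0.601). The list expressed from the maternal copy or by tissue, under the same minimum mean, ran in F1 from ATP10A, a lipid flippase gene, at 0.46 (limma, adjusted p = 0.133) to GNAS, the stimulatory G protein subunit, at -0.13 (adjusted p = 0.787). In F2 it ran from CALCR, the calcitonin receptor, at 0.52 (limma, adjusted p = 0.256) to ATP10A at -0.15 (adjusted p = 0.5). In F3 it ran from KCNK9, a potassium channel, at 0.04 (limma, adjusted p = 0.815) to CALCR at -0.18 (adjusted p = 0.488). With size factors 4 genes of both lists passed in F1, namely L3MBTL1 (0.67, adjusted p = 0.0343), ATP10A (0.39, adjusted p = 0.0314), IGF2R (0.31, adjusted p = 0.00505) and PPP1R9A (0.13, adjusted p = 0.0392). That scaling called 2058 genes of the whole F1 table (17.3%) in place of 78.

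**Figure D4:**
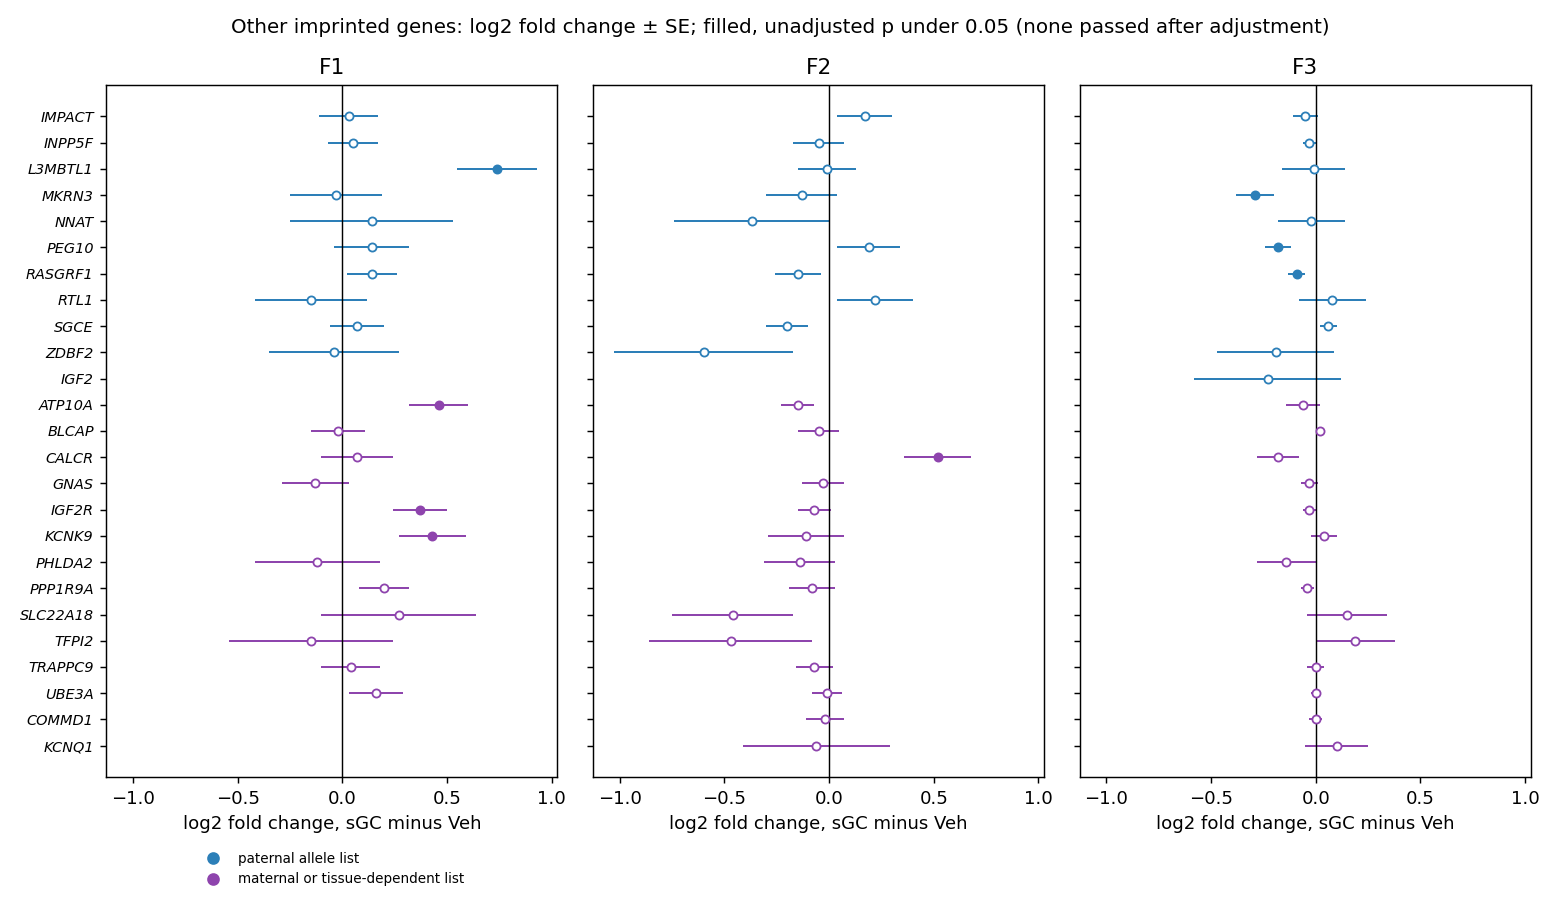
Log2 fold change of sGC minus Veh (horizontal axis) ± SE on the deposited scale for the other imprinted genes tested in F1, F2 and F3, with the paternal list in blue and the maternal or tissue-dependent list in purple. Filled points had an unadjusted p under 0.05 (4 in F1, 1 in F2 and 3 in F3), and none passed after adjustment.

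Genes that keep imprints through development were counted too. In F1, 6 of 7 were higher in sGC, in F2 3 of 7 and in F3 3 of 7, and none passed the adjusted threshold on the deposited scale. At an unadjusted p under 0.05 there was 1 in F1 (higher), 2 in F2 (both lower) and 0 in F3. The shares of all genes were 13.6%, 11.7% and 13.1%. Those in F2 were ZFP57 and SETDB1 (-0.29, limma, unadjusted p = 0.0111, adjusted p = 0.282), the latter named after its values were seen. ZFP57, a zinc finger protein that protects methylated imprinting control regions in the embryo, had the largest difference of the 7 in F2. Its Veh values were 594, 1019, 718, 576 and 676 normalized counts, and its sGC values were 362, 368, 371, 205 and 565. All 5 sGC animals were below all 5 Veh animals, where 2.4% of genes in F2 did not overlap in either direction. This was a log2 fold change of -0.97 ± 0.22 (SE; limma, unadjusted p = 0.000726, adjusted p = 0.0906). With size factors it was -0.90 (limma, adjusted p = 0.16), and the scaled ranges overlapped, with sGC animal SGM25 at 604.5 and Veh animals SGM22 and SGM28 at 550.9 and 588.2. The oligodendrocyte markers were lower and the PVN neuron markers higher in these F2 sGC animals, and their part in the ZFP57 value was not tested. In the other generations ZFP57 was at 0.11 (F1, limma adjusted p = 0.866) and 0.11 (F3, adjusted p = 0.72) on the log2 fold change scale. Among those with a mean of at least 50, ATRX, a chromatin remodeller, was furthest up in F1 at 0.30 (limma, adjusted p = 0.268) and in F2 at 0.03 (adjusted p = 0.902), and DNMT1, the maintenance methyltransferase, furthest down in F3 at -0.09 (adjusted p = 0.438). With size factors ATRX (0.24, limma adjusted p = 0.00811) and DNMT1 (0.20, adjusted p = 0.037) passed in F1, 2 of 7 beside 17.3% of all genes.

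Relatives and partners of the imprinted genes were the remaining list. None of the 17 tested in F1 or of the 18 tested in F2 and in F3 passed on the deposited scale. Among those with a mean of at least 50, the furthest up was IGF1R, a receptor that GRB10 binds, at 0.45 in F1 (limma, adjusted p = 0.0845), where CDKN1A, the cell cycle inhibitor related to CDKN1C, was furthest down at -0.13 (adjusted p = 0.841). CDKN1A was furthest up in F2 at 0.24 (limma, adjusted p = 0.618) and in F3 at 0.18 (adjusted p = 0.249). DLK2, the paralog of DLK1, was furthest down in F2 at -0.20 (limma, adjusted p = 0.604) and in F3 at -0.28 (adjusted p = 0.304). With size factors 4 of the 17 passed in F1 beside 17.3% of all genes, which were IGF1R (0.39, limma adjusted p = 0.00134), NOTCH1 (0.35, adjusted p = 0.00189), NOTCH2 (0.31, adjusted p = 0.0313) and PLAGL2 (0.24, adjusted p = 0.039).

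The effects of sGC were compared between generations in 21 tests of the 7 genes, and none passed after adjustment over all genes on the deposited scale. Besides PEG3 and NDN, the differences lay between -0.18 (MEST, F1 minus F2) and 0.25 (DLK1, F1 minus F2). For F2 minus F3, where 0.00875% of all genes passed and 9.2% had an unadjusted p under 0.05, PEG3 had 0.20 ± 0.14 (SE; limma, adjusted p = 0.694) and MAGEL2 0.22 ± 0.17 (SE; adjusted p = 0.741). With size factors these were 0.27 (limma, adjusted p = 0.202) for PEG3 and 0.29 (adjusted p = 0.262) for MAGEL2.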

How the data were processed

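Reads were aligned by the authors to the guinea pig assembly cavPor3 and counted per gene with GenomicAlignments. Outliers were removed by Cook's distance, ComBat was applied to the F3 batches, and RUVSeq residuals gave the normalized values. That step took directions of variation between animals out of the values. The main limma and permutation p-values make no allowance for the removed directions and may be too small. The labels credit TopHat2 and edgeR to the authors. The deposited values are the resulting normalized counts rounded by the authors to whole numbers, so they were handled as a score, without a count model. The authors' own fold changes and p-values in the deposited tables were not used. The library kit marks no strand, so overlapping genes on opposite strands cannot be told apart.

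Each table was fitted apart in R 4.3.3 with limma 3.58.1, using lmFit and a trended eBayes, on log2(value + 1). Genes needed a mean value of 10 or more, and p-values were adjusted by Benjamini-Hochberg over all genes of the table, with calls under 0.05. The pseudocount of 1 makes fold changes of low genes too small. Samples were not scaled, so fold changes in F1 and F2 also hold differences in totals, and size-factor values are plotted for all 7 genes. Differences between generations came from 1 fit with 6 group means over 11429 genes. The procedure was tested on simulated data. The number of animals sets the precision, and no counting interval is given because depth cannot be recovered from these values. Samples were grouped by the labels, which do not give litters.

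Named genes are the imprinted genes, the 2 genes most like each, and per list and generation the largest and smallest log2 fold change where the mean reached 50. The members, lists and rules were chosen with earlier results of these data known. Neighbouring genes were not listed, because the genes were not ordered on the build of the files.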

Additional observations from a re-analysis of the deposited data

How the results depend on the processing

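The effects within a generation kept their sign in 187 of 203 values under the alternatives, and in 198 of 224 values with 1 animal left out, and no imprinted gene passed the adjusted threshold in any of them. The removed directions as covariates, and the first F3 batch in the fit over generations, were chosen after seeing the data. No paired analysis was possible because the Veh and sGC animals of a generation share no replicate number. The causes of the changes below were not tested. Precision rests on 5 or 6 animals a group, and the read depth behind the normalized values is unknown.

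Signs turned with size factors, the sample total and quantiles for DLK1 in F1 (-0.04, -0.04 and -0.05), MAGEL2 in F1 (-0.06, -0.06 and -0.08), GRB10 in F1 (-0.01, -0.0002 and -0.01), PLAGL1 in F2 (0.07, 0.08 and 0.03) and PEG3 in F1 minus F2 (-0.01, -0.01 and -0.02). With the first F3 batch or the batch covariate they turned for PLAGL1 (-0.01 for both) and GRB10 (0.02 for both) in F3. In F2 minus F3 they turned for PLAGL1 (0.03 with size factors, 0.04 with the total, 0.0033 in the first batch) and GRB10 (0.01 and 0.02 with size factors and the total).

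Leaving out 1 animal turned signs, with log2 fold changes from -0.14 to 0.30 for DLK1, -0.01 to 0.15 for GRB10, -0.10 to 0.13 for MAGEL2 and -0.19 to 0.04 for MEST in F1. They ran from -0.02 to 0.11 for PEG3, -0.10 to 0.10 for PLAGL1 and -0.03 to 0.06 for NDN in F2. In F3 they ran from -0.17 to 0.03 for DLK1, -0.05 to 0.01 for GRB10 and -0.05 to 0.0028 for MEST. In F1 minus F3 the differences ran from -0.08 to 0.36 for DLK1, -0.01 to 0.22 for MAGEL2, -0.17 to 0.07 for MEST and -0.17 to 0.04 for NDN, and in F2 minus F3 from -0.13 to 0.07 for PLAGL1.

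Genes called in the whole table numbered 78 in F1, and 2058, 1943 and 2084 with size factors, the total and quantiles. In F2 they numbered 0, and 17 with a mean of at least 50 and 42 with quantiles. In F3 they numbered 6, and 2 in the first batch, 3 with the batch covariate and 1 with removed directions. F1 minus F2 gave 873, and 1635, 1599 and 1785 with those scalings and 448 with removed directions. F1 minus F3 gave 358, and 2013, 1991 and 2082, with 99 in the first batch and 117 with removed directions. F2 minus F3 gave 1, and 18, 18 and 20, with 0 in the first batch and 0 with removed directions. With 1 animal left out, the calls ranged from 15 (without Veh SGM15) to 474 (without Veh SGM7) in F1, 0 to 114 (without Veh SGM28) in F2, 1 (without sGC SGM21) to 15 (without sGC SGM18) in F3, 439 to 2445 in F1 minus F2, 193 to 1281 in F1 minus F3 and 0 to 5 in F2 minus F3.

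Of the 7 imprinted genes, those with an unadjusted p under 0.05 numbered 1, 2 and 2 in F1 with size factors, the total and quantiles. In F2 they numbered 2, 2 and 3. Of all genes, 3912, 3861 and 3952 of 11874 had one in F1, and 1535, 1458 and 1675 of 11965 in F2. The imprinted genes numbered 3 under each for F1 minus F2, 2 under each for F2 minus F3, and 0 in F3 with the batch covariate. For F1 minus F2, all genes gave 3473, 3465 and 3546 of 11429. For F2 minus F3 they gave 1677, 1656 and 1760, and in F3 with the batch covariate 1206 of 11866. With 1 animal left out the imprinted genes ranged from 0 to 1 in F1, 0 to 1 in F2, 1 to 2 in F3, 0 to 1 in F1 minus F2 and 0 to 1 in F1 minus F3. The median correlation among the imprinted genes was 0.41 scaled and 0.67 on the deposited scale.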
